A study of Mus musculus with 6 samples.

Results

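The nuclear genes for the subunits of the mitochondrial respiratory chain were followed in sorted blood stem and progenitor cells of adult mouse bone marrow, on 6 Affymetrix 3' arrays. Members were taken by symbol: Nduf followed by a, b, c, s or v, Cox4 to Cox8, Uqcr, and Sdha, Sdhb, Sdhc and Sdhd. A gene needed a probe set annotated with that symbol alone, and the probe set with the highest mean over the 6 arrays stood for the gene. This gave 73 of the 18194 genes measured: 34 structural subunits of complex I, 8 complex I assembly factors that share the Ndufaf prefix, 4 subunits of complex II, 8 of complex III, 10 broadly expressed subunits of complex IV, and 9 restricted isoforms and relatives. All 73 entered the fits across all genes (67 where the dimmest 40% of genes were left out), and 63 of them are structural subunits once the assembly factors, Cox7a2l and Ndufa4l2 are set aside. Within this rule, measured values chose only the probe set.

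The first group was E2A-KO LMPP, lineage-negative SCA1+ KIT+ cells with high surface FLT3 (lymphoid-primed multipotent progenitors) from E2A knockout mice on a C57bl/6 background. The second was WT LMPP, from the same gate in wild-type C57bl/6 mice. The third was WT LSK FLT3-, lineage-negative SCA1+ KIT+ cells of wild-type C57bl/6 mice that lack FLT3 on their surface, among which are the hematopoietic stem cells. Each group had 2 arrays, and the stated goal of the study was the comparison of knockout with wild-type LMPP. The labels do not give the knockout allele. They also leave unsaid whether replicate arrays stem from different mice or sorts, so a p-value here covers no more than array-to-array spread, possibly technical. A free-text label calls every sample wild-type LMPP, and the groups follow the titles and source names instead. Tcf3 encodes the E2A proteins, transcription factors of the basic helix-loop-helix class needed in lymphoid development.

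The respiratory chain passes electrons to oxygen in the inner mitochondrial membrane and uses the energy to pump protons. Complex I takes electrons from NADH, complex II takes them from succinate and is also an enzyme of the citric acid cycle, complex III passes them on to cytochrome c, and complex IV hands them to oxygen; the proton gradient then drives ATP synthase. Most subunits are encoded in the nucleus and must be assembled with a few encoded by mitochondrial DNA, and hematopoietic stem cells are generally described as relying less on respiration than the progenitors they give rise to.

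Many respiratory genes in mammals carry promoter elements for the factors NRF1, GABPA and YY1, so the promoters of the members were read from RefSeq (GRCm38.p6) for the 59 members with an entry. In a window of 250 bases before to 50 bases after the start, searched on both strands with each motif counted separately even where matches overlap, GCGCATGCGC (NRF1) was found in 4 of 59, or 6.78%, against 1.75% of the 14453 genes tested that have a promoter entry. These 4 were Cox6a1, Ndufaf4, Ndufaf5 and Uqcrc1. CCGGAAG (GABPA) was in 13 (22%, against 15% of all), AAGATGGCG (YY1) in 5 (8.47%, against 2.53%) and the E-box CAGNTG, a form that E2A proteins can bind, in 27 (45.8%, against 52.3%). The 5 with YY1 were Ndufa9, Ndufaf8, Ndufc1, Ndufs4 and Ndufs7. None of the 5 restricted isoforms and relatives with an entry held an NRF1, GABPA or YY1 match, and their median was 10 CpG per window, against 19 over the 59 members. A match describes letters in the window and not a bound site.

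Printed next are the 250 bases before the start for a broadly expressed and a restricted form of the same complex IV subunit, for a broadly expressed member with NRF1 and GABPA matches, and for a complex I subunit and an assembly factor called lower in WT LMPP than in WT LSK FLT3- under both scalings described later. Capitals mark motif matches, and each sequence reads 5′ to 3′ on the strand of the gene.
Cox6b1 (chr7:30626115-30626364, minus strand): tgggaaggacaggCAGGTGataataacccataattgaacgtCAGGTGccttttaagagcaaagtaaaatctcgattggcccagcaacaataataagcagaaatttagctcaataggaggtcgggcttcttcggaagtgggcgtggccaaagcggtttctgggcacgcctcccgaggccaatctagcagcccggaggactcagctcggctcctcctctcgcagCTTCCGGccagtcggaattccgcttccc
Cox6b2 (chr7:4753095-4753344, minus strand): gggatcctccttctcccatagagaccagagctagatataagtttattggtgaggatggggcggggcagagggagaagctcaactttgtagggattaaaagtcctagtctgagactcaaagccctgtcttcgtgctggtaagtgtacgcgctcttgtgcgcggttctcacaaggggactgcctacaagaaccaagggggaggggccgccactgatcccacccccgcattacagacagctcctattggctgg
Cox6a1 (chr5:115348959-115349208, minus strand): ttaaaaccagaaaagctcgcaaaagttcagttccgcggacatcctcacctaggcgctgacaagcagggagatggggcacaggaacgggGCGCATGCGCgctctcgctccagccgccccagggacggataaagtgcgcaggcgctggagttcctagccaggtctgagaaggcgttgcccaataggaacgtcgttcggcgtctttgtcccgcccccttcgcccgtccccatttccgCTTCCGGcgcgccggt
Ndufb5 (chr3:32736813-32737062, plus strand): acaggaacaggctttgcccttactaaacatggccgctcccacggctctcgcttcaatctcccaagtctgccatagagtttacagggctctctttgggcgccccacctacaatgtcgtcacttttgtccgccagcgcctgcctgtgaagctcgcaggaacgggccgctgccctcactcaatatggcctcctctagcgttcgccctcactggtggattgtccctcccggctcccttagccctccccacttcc
Ndufaf1 (chr2:119662835-119663084, minus strand): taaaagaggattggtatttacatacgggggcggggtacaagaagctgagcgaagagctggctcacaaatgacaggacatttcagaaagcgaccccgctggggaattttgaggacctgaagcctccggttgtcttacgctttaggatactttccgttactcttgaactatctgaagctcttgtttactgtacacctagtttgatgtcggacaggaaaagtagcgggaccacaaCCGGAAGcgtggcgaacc
Cox6b1 had 2 E-boxes and 1 GABPA match and 14 CpG in this stretch, and its restricted relative Cox6b2 had no match and 8 CpG. Cox6a1 had 26 CpG with 1 NRF1 and 1 GABPA match, Ndufaf1 had 1 GABPA match, and Ndufb5 had none.

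Values are RMA intensities, given here as log2; they are relative within a probe set and are not set against those of another probe set. The arrays of a group correlated at 0.9898 for E2A-KO LMPP, 0.9885 for WT LMPP and 0.9961 for WT LSK FLT3- over all probe sets, and the replicate differences of the members had an SD of 0.197 in E2A-KO LMPP, 0.185 in WT LMPP and 0.139 in WT LSK FLT3-. Flt3 was at 10.70 and 10.76 in E2A-KO LMPP, 10.80 and 10.80 in WT LMPP and 8.87 and 8.76 in WT LSK FLT3-, which follows the gates. The brightest Tcf3 probe set was at 6.80 and 6.53 in E2A-KO LMPP and at 6.93 and 6.86 in WT LMPP (log2 change -0.23, adjusted p = 0.546 by limma); since neither the allele nor the probe positions are known here, this does not check the genotype. The distribution of the deposited values differed by group: the upper quartile was 5.78 to 5.82 in the 4 LMPP samples against 6.13 and 6.15 in WT LSK FLT3-, while the medians were 4.01 to 4.04 in LMPP against 3.91 and 3.90 in WT LSK FLT3-. Comparisons with WT LSK FLT3- are therefore given on the deposited values and again after quantile normalization, which gives all 6 arrays 1 distribution. The 4 members Ndufb4, Cox7a1, Cox7b2 and Ndufa4l2 lay below the array median on all 6 arrays, where intensities are compressed.

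The member median on the E2A-KO LMPP arrays was 8.64 and 8.65, against 8.71 and 8.76 on the WT LMPP arrays and 8.96 and 9.06 on the WT LSK FLT3- arrays. The WT LSK FLT3- arrays were highest, and no group overlapped another. Medians over all genes had the same order without overlap. They were 4.85 and 4.84 in E2A-KO LMPP, 4.86 and 4.87 in WT LMPP and 4.95 and 4.97 in WT LSK FLT3-. After quantile normalization the member medians were 8.76 and 8.78 in E2A-KO LMPP and 8.82 and 8.83 in WT LMPP. Those in WT LSK FLT3- were 8.74 and 8.84 and so spanned the WT LMPP values. On every array the member median stood between the 94.2 and 94.56 percentile of that array's values, so the rank of the genes as a group was nearly the same on all 6 arrays. In bulk RNA, fewer cells of a type and less RNA per cell cannot be told apart.

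**Figure D1:**
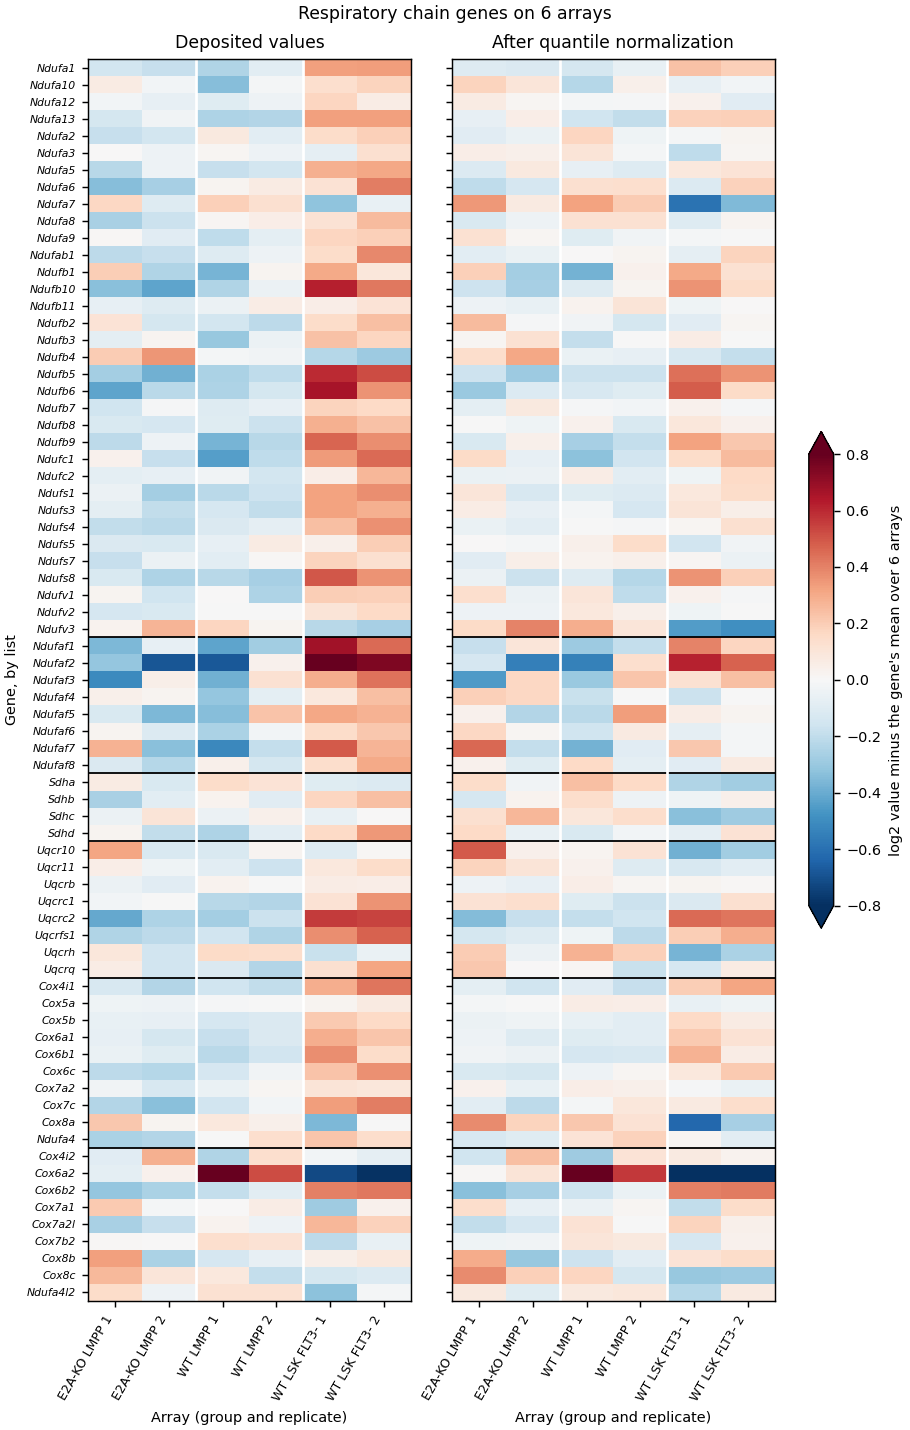
Each row is 1 of the 73 genes, ordered by list, and each column 1 array, ordered E2A-KO LMPP, WT LMPP and WT LSK FLT3-; colour is the log2 value minus the gene's mean over the 6 arrays, for the deposited values on the left and after quantile normalization on the right. The WT LSK FLT3- columns stand out as high on the left for most genes and much less so on the right.

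The comparison of E2A-KO LMPP with WT LMPP asked what loss of E2A changes in these progenitors. No member passed limma's test at an adjusted p of 0.05, in either direction: 0 of 73 were called higher, where 0.379% of all genes were, and 0 were called lower, where 0.995% were. At an unadjusted p under 0.05 there were 4 members (5.48%), against 14.6% of all genes: Ndufa6, Ndufb4, Ndufa4 and Cox6a2. The members' changes had a median of -0.0005 and ran between -0.80 and 0.32, with 36 above 0 and 37 below, and the median over all genes was -0.0157. For 32 members (43.8%) the arrays of the groups did not overlap, against 41.6% of all genes. Quantile normalization again gave 0 calls, where 0.346% of all genes were called higher and 0.885% lower, with 1 member at an unadjusted p under 0.05 (14.9% of all genes) and a member median of 0.0166.

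**Figure D2:**
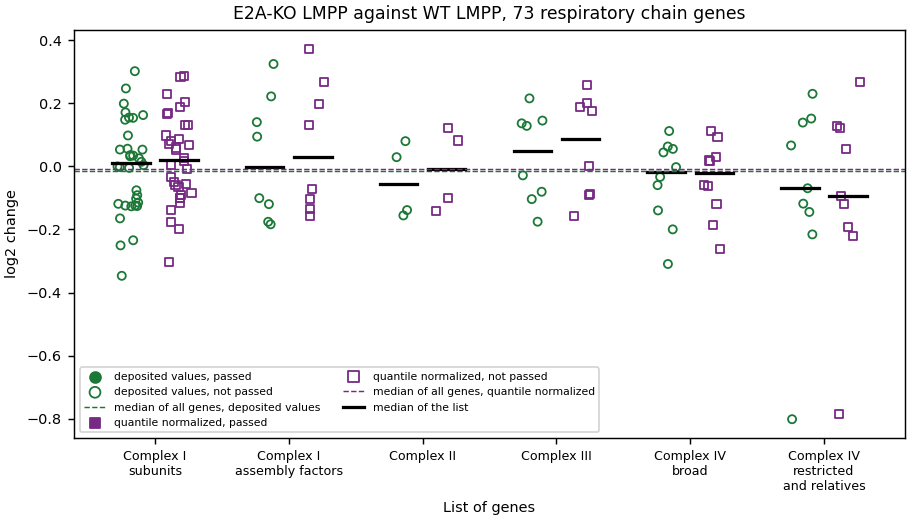
Log2 change of each of the 73 genes in E2A-KO LMPP against WT LMPP, by list on the horizontal axis, from the deposited and the quantile-normalized values; open symbols did not pass and the thick bars are list medians. All symbols are open, the list medians lie near 0, and the lowest points, at -0.80 (deposited) and -0.78 (quantile-normalized), are Cox6a2.

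By complex, the median change in the knockout was 0.01 for the structural subunits of complex I, -0.05 for complex II, 0.05 for complex III and -0.02 for the broadly expressed subunits of complex IV. Ndufa6, an accessory subunit of complex I, was at 8.31 and 8.38 in E2A-KO LMPP and at 8.67 and 8.71 in WT LMPP, with no overlap (log2 change -0.35, SE 0.14, adjusted p = 0.306). Ndufa4, first assigned to complex I and now counted with complex IV, was at 8.62 and 8.65 in E2A-KO LMPP and at 8.88 and 9.01 in WT LMPP (log2 change -0.31, adjusted p = 0.309). Both were lower on both knockout arrays without passing the test. Ndufb4, a membrane-arm subunit, went the other way at a level below the array median, with 3.19 and 3.34 in E2A-KO LMPP and 2.97 and 2.96 in WT LMPP (log2 change 0.30, adjusted p = 0.325). Among the assembly factors, Ndufaf7, a methyltransferase that acts on a complex I subunit, had a change of 0.32 (adjusted p = 0.528) and Ndufaf4 one of 0.22 (adjusted p = 0.51). In complex III, the core protein gene Uqcrc1 was at 8.34 and 8.36 in E2A-KO LMPP and at 8.14 and 8.13 in WT LMPP, with no overlap (log2 change 0.22, adjusted p = 0.51), and the hinge protein gene Uqcrh had a change of -0.18 (adjusted p = 0.612). The catalytic flavoprotein gene Sdha had the widest difference of complex II, at 10.37 and 10.19 in E2A-KO LMPP against 10.45 and 10.42 in WT LMPP (log2 change -0.16, adjusted p = 0.634), and Sdhb differed by -0.14.

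Cox6a2, the form of complex IV subunit VIa known from heart and skeletal muscle, had the largest knockout change of the members. On its brighter probe set it was at 5.83 and 5.93 in E2A-KO LMPP and at 6.94 and 6.43 in WT LMPP, and the arrays did not overlap. The log2 change was -0.80 (SE 0.18), with an adjusted p of 0.0725 on the deposited values and 0.0969 after quantile normalization, so it was not called. Its second probe set, which can also read related sequences by its design, was at 3.22 and 3.26 in E2A-KO LMPP and at 4.61 and 4.69 in WT LMPP, with a change of -1.41 (SE 0.13, adjusted p = 0.002 in the fit over all probe sets). The call therefore turned on the probe set and on 1 array: with probe sets averaged, Cox6a2 had a change of -1.10 with an adjusted p of 0.0039, and without WT LMPP replicate 2 one of -1.06 with an adjusted p of 0.0271. The broadly expressed counterpart Cox6a1 was at 11.47 and 11.39 in E2A-KO LMPP and at 11.35 and 11.42 in WT LMPP, with overlapping arrays (log2 change 0.04, adjusted p = 0.911).

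Markers of granulocytes also differed between these groups. The summed linear intensity of 8 neutrophil granule genes was 2022 and 1717 in E2A-KO LMPP and 4271 and 4119 in WT LMPP, and 6 of the 8 genes were called lower in the knockout. The part of these cells in the member values was not tested, and no member was called beside them. The summed B and plasma cell list (5 genes) was at 96 and 101 in E2A-KO LMPP and at 105 and 106 in WT LMPP.

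The comparison of WT LMPP with WT LSK FLT3- follows the step at which surface FLT3 appears. On the deposited values 24 of 73 members fell in WT LMPP, or 32.9%, where 23.7% of all genes were called lower, and 1 member (1.37%) rose, where 10.4% of all genes were called higher. After quantile normalization 5 members fell (6.85%, against 10.1% of all genes) and 7 rose (9.59%, against 9.1% of all genes). The members' median change was -0.32 on the deposited values, with 12 above 0 and 61 below, and -0.05 after quantile normalization, with 31 above and 42 below; the medians over all genes were -0.0095 and 0.0245. Against brighter genes the members stood out less: without the dimmest 40% of genes, 30 of 67 members fell (44.8%), where 40.8% of the 10916 genes left were called lower, and the median change was -0.338 for the members and -0.2862 for all genes left. Going from deposited to quantile values moved the members' stage changes by a median of 0.2539, between -0.1481 and 0.4013. The split of calls thus turned on how the arrays were scaled, and the value distribution of an array and its group cannot be told apart here. Fewer members, and fewer of all genes, were called lower without either WT LSK FLT3- array or without WT LMPP replicate 1. These fits leave 1 array in a group, and the members' share called lower was then near or below that of all genes. The members' median change on the deposited values was -0.3355 without WT LSK FLT3- replicate 1 and -0.2831 without its replicate 2. It was -0.2594 without WT LMPP replicate 1. In the same order, the medians over all genes were -0.0158, -0.0143 and -0.0202.

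Between these settings, 5 members were called lower in both (Ndufb5, Ndufb9, Uqcrc2, Ndufaf1 and Cox6b2) and 1 was called higher in both (Cox6a2). Another 19 called lower on the deposited values did not pass after quantile normalization. A further 6, Ndufv3, Ndufa7, Sdha, Sdhc, Uqcrh and Cox8a, were called higher only after it, and 42 passed in neither. No member was called lower in one and higher in the other. Calls under both scalings were counted for the members alone, so no share of all genes stands beside these counts. After quantile normalization by itself, 10.1% of all genes were called lower and 9.1% higher. Ndufb5, Uqcrc2, Ndufaf1 and Cox6a2 also stayed called with any 1 array left out, with the replicate block, with probe sets averaged, with centred arrays and in the fit over all probe sets, each on the deposited values. For Ndufaf1 the quantile call did not hold in the fit over all probe sets (adjusted p = 0.0592). The arrays did not overlap for 65 members (89%) on the deposited values, against 71.8% of all genes, and for 49 (67.1%) after quantile normalization, against 62.3%.

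**Figure D3:**
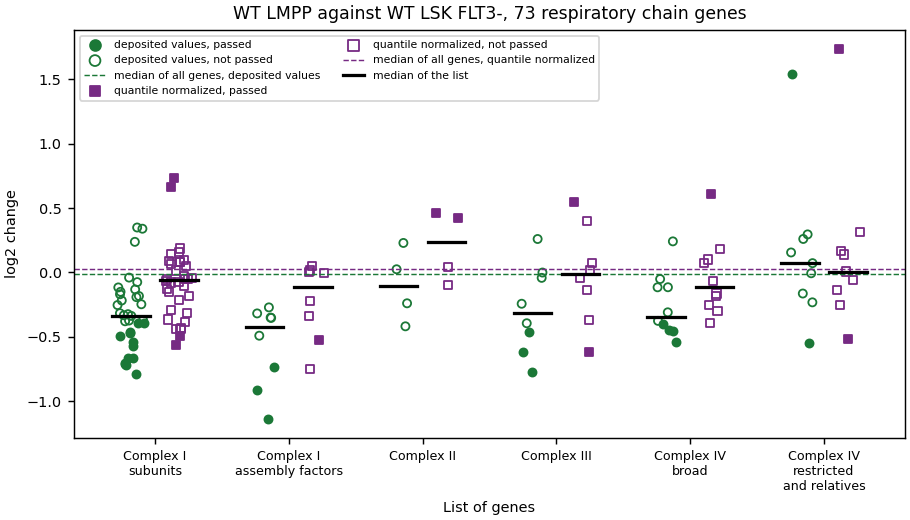
Log2 change of each of the 73 genes in WT LMPP against WT LSK FLT3-, by list on the horizontal axis, from the deposited and the quantile-normalized values; filled symbols passed at an adjusted p of 0.05, thick bars are list medians and dashed lines the medians over all genes. The deposited list medians for complexes I, III and IV lie near -0.3, the quantile ones near 0, and Cox6a2 stands alone above 1.5.

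Of the 34 structural subunits of complex I, 13 fell and 0 rose on the deposited values (median -0.34), and 2 fell and 2 rose after quantile normalization (median -0.06). Beside these counts and those of the lists below stand the shares over all genes. Called lower were 23.7% on the deposited values, 40.8% without the dimmest 40% of genes, and 10.1% after quantile normalization. Ndufb5, a membrane-arm subunit, was at 9.49 and 9.54 in WT LMPP and at 10.34 and 10.26 in WT LSK FLT3-. It was lower on both WT LMPP arrays, 1.73-fold (log2 change -0.79, SE 0.13, adjusted p = 0.00235), and by -0.57 after quantile normalization (adjusted p = 0.0167). Ndufb9, in the same arm, was at 9.63 and 9.78 in WT LMPP and at 10.46 and 10.37 in WT LSK FLT3-, again without overlap. Its change was -0.71 (SE 0.14, adjusted p = 0.0048) and -0.50 after quantile normalization (adjusted p = 0.0317). These were the structural complex I subunits called lower under both scalings. Ndufb9 did not pass without WT LSK FLT3- replicate 1 (adjusted p = 0.0581) or with probe sets averaged (change -0.32, adjusted p = 0.0507).

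Other complex I subunits were called lower only on the deposited values. Ndufc1 was at 8.71 and 8.94 in WT LMPP and at 9.49 and 9.60 in WT LSK FLT3- (log2 change -0.72, adjusted p = 0.00656; quantile -0.44, adjusted p = 0.062). Ndufb6 was at 9.04 and 9.15 in WT LMPP and at 9.95 and 9.65 in WT LSK FLT3- (log2 change -0.70, adjusted p = 0.00862; quantile -0.43, adjusted p = 0.0836). For both genes the WT LSK FLT3- arrays were the higher ones without overlap. Ndufc1 lost its call without WT LSK FLT3- replicate 2 (adjusted p = 0.0696) and Ndufb6 without replicate 1 of that group (adjusted p = 0.0945). The other 9 included the iron-sulfur subunits of the electron path Ndufs1 (change -0.54, adjusted p = 0.016) and Ndufs8 (change -0.67, adjusted p = 0.00558), and the peripheral-arm core subunit Ndufs3 (change -0.47, adjusted p = 0.0211). The Ndufs1 and Ndufs3 calls were lost without either WT LSK FLT3- array (adjusted p = 0.0911 to 0.133) and that of Ndufs8 without its replicate 1 (adjusted p = 0.0685). Ndufs1 also missed the threshold without WT LMPP replicate 1 (adjusted p = 0.052), and Ndufs3 without WT LMPP replicate 2 (adjusted p = 0.0594). The other called ones were Ndufb10, Ndufa13, Ndufa1, Ndufa5, Ndufb8 and Ndufs4. The flavoprotein subunits were not called: Ndufv1, which binds NADH, had a change of -0.32 (adjusted p = 0.117; with probe sets averaged -0.49, adjusted p = 0.0167) and Ndufv2 one of -0.13 (adjusted p = 0.428).

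In the opposite direction, Ndufv3, a small flavoprotein-fraction subunit, was at 8.79 and 8.64 in WT LMPP and at 8.39 and 8.35 in WT LSK FLT3-, with no overlap. Its change was 0.34 (adjusted p = 0.0927) on the deposited values and 0.67 (adjusted p = 0.0146) after quantile normalization. Ndufa7 was at 7.46 and 7.39 in WT LMPP and at 6.95 and 7.21 in WT LSK FLT3-, with changes of 0.35 (adjusted p = 0.107) and 0.73 (adjusted p = 0.0134). Both had higher values on both WT LMPP arrays, and both passed only under quantile normalization.

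Of the 8 assembly factors, 3 fell on the deposited values (median -0.42) and 1 after quantile normalization (median -0.11). Ndufaf2, a chaperone of late complex I assembly, was at 5.98 and 6.69 in WT LMPP and at 7.55 and 7.41 in WT LSK FLT3-. The WT LMPP arrays were 0.707 apart, the widest replicate gap of any member in that group, and still did not reach the WT LSK FLT3- arrays (2.2-fold lower, log2 change -1.14, SE 0.23, adjusted p = 0.00627; quantile -0.75, adjusted p = 0.0566). Ndufaf1, an early assembly factor of the membrane arm, was at 6.56 and 6.70 in WT LMPP and at 7.65 and 7.43 in WT LSK FLT3-, with a change of -0.91 (SE 0.15, adjusted p = 0.00283) and of -0.52 after quantile normalization (adjusted p = 0.0443). Ndufaf7 had a change of -0.74 (adjusted p = 0.0278) and of -0.34 after quantile normalization (adjusted p = 0.333). Ndufaf2 lost its call without WT LSK FLT3- replicate 1 (adjusted p = 0.0613), and Ndufaf7 without either array of that group or WT LMPP replicate 1 (adjusted p = 0.0891 to 0.175).

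None of the 4 complex II genes was called in WT LMPP on the deposited values (median -0.11), and 2 were called higher after quantile normalization (median 0.24). Sdha, the succinate-oxidizing flavoprotein, was at 10.45 and 10.42 in WT LMPP and at 10.21 and 10.20 in WT LSK FLT3- (log2 change 0.23, adjusted p = 0.201; quantile 0.46, adjusted p = 0.0411). Sdhb, the iron-sulfur subunit, was at 8.99 and 8.87 in WT LMPP and at 9.13 and 9.21 in WT LSK FLT3- (log2 change -0.24, adjusted p = 0.191; quantile 0.04). Neither gene's arrays overlapped on the deposited values, yet the directions were opposite. Sdhc and Sdhd encode the membrane anchor. Sdhd was at 8.10 and 8.27 in WT LMPP and at 8.51 and 8.70 in WT LSK FLT3- (log2 change -0.42, adjusted p = 0.0535; quantile -0.10, adjusted p = 0.691).

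The complex II readings also differed by probe set. The brightest Sdhc probe set was at 6.77 and 6.85 in WT LMPP and at 6.76 and 6.82 in WT LSK FLT3-, overlapping (log2 change 0.02, adjusted p = 0.898; quantile 0.43, adjusted p = 0.0483). A second Sdhc probe set was at 6.27 and 6.22 in WT LMPP and at 7.28 and 7.34 in WT LSK FLT3-, a change of -1.07 (adjusted p = 0.00271), and of -0.67 after quantile normalization (adjusted p = 0.0354), both in the fit over all probe sets. For Sdha the second probe set was at 10.09 and 10.08 in WT LMPP and at 10.45 and 10.45 in WT LSK FLT3-, a change of -0.37 (adjusted p = 0.0709), opposite to the brightest one. The stage direction of Sdha and Sdhc is thus uncertain on these arrays. Of the 13 members called on the deposited values with several probe sets, 0 had a probe set called in the opposite direction. Calls after quantile normalization, such as that of Sdhc, were not counted in this way.

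Of the 8 complex III genes, 3 fell and 0 rose (median -0.32), and 1 fell and 1 rose after quantile normalization (median -0.01). The core protein gene Uqcrc2 was at 10.97 and 11.07 in WT LMPP and at 11.80 and 11.78 in WT LSK FLT3-. It was lower on both WT LMPP arrays, 1.71-fold (log2 change -0.77, SE 0.13, adjusted p = 0.00287; quantile -0.62, adjusted p = 0.0124). Its partner Uqcrc1 was at 8.14 and 8.13 in WT LMPP and at 8.48 and 8.72 in WT LSK FLT3-, with a change of -0.47 (adjusted p = 0.0283; quantile -0.14, adjusted p = 0.526). Uqcrfs1, the Rieske iron-sulfur protein, was at 9.25 and 9.16 in WT LMPP and at 9.77 and 9.87 in WT LSK FLT3-, with a change of -0.62 (adjusted p = 0.00685; quantile -0.37, adjusted p = 0.0848). All 3 were lower in WT LMPP with no overlap, and only Uqcrc2 was also called after quantile normalization. Uqcrc1 lost its call whichever of the 4 arrays was omitted (adjusted p = 0.0678 to 0.221), and Uqcrfs1 lost its own without WT LSK FLT3- replicate 2 (adjusted p = 0.0749). Uqcrh was at 9.77 and 9.76 in WT LMPP and at 9.44 and 9.56 in WT LSK FLT3- (log2 change 0.26, adjusted p = 0.176; quantile 0.54, adjusted p = 0.0297), and the brightly measured Uqcrb was nearly level, at 13.00 and 12.97 in WT LMPP and at 13.02 and 13.02 in WT LSK FLT3- (log2 change -0.04, adjusted p = 0.81).

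Of the 10 broadly expressed complex IV genes, 4 fell and 0 rose (median -0.34), and 0 fell and 1 rose after quantile normalization (median -0.12). Cox4i1, the widespread form of subunit IV, was at 11.06 and 11.02 in WT LMPP and at 11.52 and 11.66 in WT LSK FLT3- (log2 change -0.54, adjusted p = 0.0132; quantile -0.40, adjusted p = 0.0635). Cox7c had a change of -0.46 (adjusted p = 0.0265; quantile -0.07), Cox6b1, which faces the intermembrane space, -0.44 (adjusted p = 0.033; quantile -0.30) and Cox6a1 -0.40 (adjusted p = 0.0367; quantile -0.25, adjusted p = 0.195). The arrays of the groups did not overlap for any of these 4, but each call was lost without either WT LSK FLT3- array (adjusted p = 0.0634 to 0.239). Those of Cox6b1 and Cox6a1 were also lost without either WT LMPP array (adjusted p = 0.0589 to 0.104), and that of Cox7c without WT LMPP replicate 1 (adjusted p = 0.0939). The subunits Cox5a and Cox7a2 were nearer to level, with changes of -0.05 (adjusted p = 0.768) and -0.12. Cox8a was at 7.76 and 7.71 in WT LMPP and at 7.32 and 7.67 in WT LSK FLT3- with no overlap, and had a change of 0.24 (adjusted p = 0.256; quantile 0.61, adjusted p = 0.0311).

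The restricted isoforms gave the single member called higher. Cox6a2 was at 6.94 and 6.43 in WT LMPP and at 5.18 and 5.11 in WT LSK FLT3-, 2.9-fold higher with no overlap (log2 change 1.54, SE 0.18, adjusted p = 0.000515), and by 1.74 after quantile normalization (adjusted p = 0.000671). Its second probe set was at 4.61 and 4.69 in WT LMPP and at 3.40 and 3.33 in WT LSK FLT3-, also higher (log2 change 1.28, adjusted p = 0.00042 in the fit over all probe sets). The counterpart Cox6a1 was called lower on the deposited values, so the muscle form and the widespread form of this subunit were called in opposite directions there. The testis form Cox6b2 was at 4.29 and 4.40 in WT LMPP and at 4.89 and 4.90 in WT LSK FLT3- (log2 change -0.55, SE 0.13, adjusted p = 0.0109; quantile -0.51, adjusted p = 0.0232). These Cox6b2 values lie close above the array medians, and the call was lost when either WT LSK FLT3- array was left out (adjusted p = 0.0802 without replicate 1 and 0.0879 without replicate 2).

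**Figure D4:**
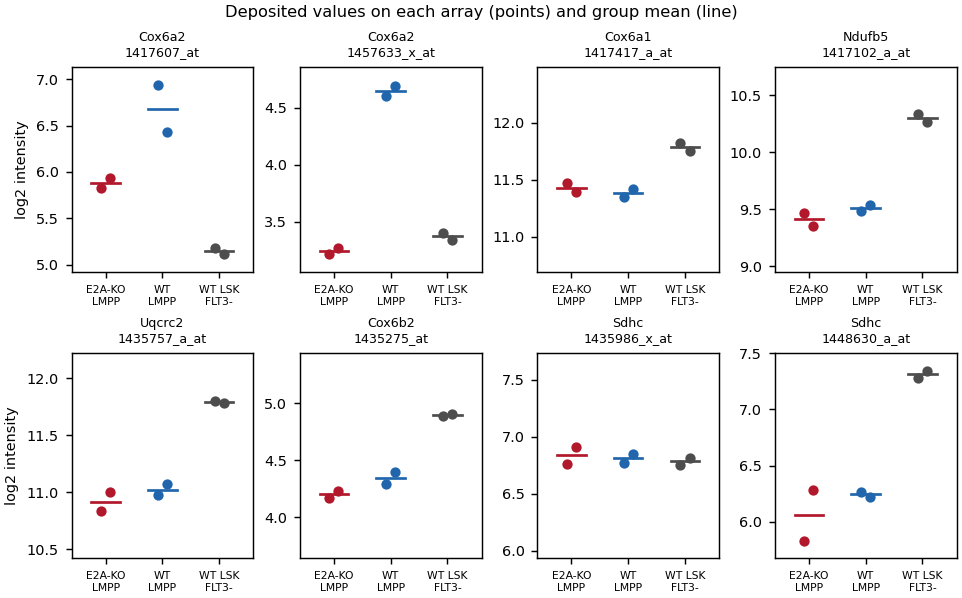
Deposited log2 intensity (vertical axis) on each array for 8 probe sets, with points for arrays, lines for group means, and groups from left to right E2A-KO LMPP, WT LMPP and WT LSK FLT3-. Both Cox6a2 probe sets are highest in WT LMPP, Cox6a1, Ndufb5, Uqcrc2 and Cox6b2 are highest in WT LSK FLT3-, and the 2 Sdhc probe sets differ.

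The other restricted forms were not called in either comparison. Cox4i2, known from lung, was at 3.73 and 4.11 in E2A-KO LMPP, 3.58 and 3.96 in WT LMPP and 3.80 and 3.75 in WT LSK FLT3-. Cox7a1, of muscle, was at 3.22 and 2.99 in E2A-KO LMPP, 3.01 and 3.07 in WT LMPP and 2.72 and 3.05 in WT LSK FLT3-. Both overlapped between all groups. Cox7b2 was at 2.74 and 2.73 in E2A-KO LMPP, 2.86 and 2.84 in WT LMPP and 2.52 and 2.67 in WT LSK FLT3-. Cox8b was at 4.41 and 3.83 in E2A-KO LMPP, 3.95 and 4.02 in WT LMPP and 4.13 and 4.17 in WT LSK FLT3-. These 4 genes lie at, near or below the array medians; Cox7b2 did not overlap between any groups, and for Cox8b only the WT LMPP and WT LSK FLT3- arrays were apart. Cox8c, of testis, was at 5.94 and 5.78 in E2A-KO LMPP, 5.77 and 5.49 in WT LMPP and 5.54 and 5.57 in WT LSK FLT3-, and Ndufa4l2, a hypoxia-induced relative of Ndufa4, was at 3.97 and 3.79 in E2A-KO LMPP, 3.95 and 3.95 in WT LMPP and 3.50 and 3.81 in WT LSK FLT3-. Cox7a2l, which helps join complexes III and IV into supercomplexes, was at 11.06 and 11.14 in E2A-KO LMPP, 11.35 and 11.28 in WT LMPP and 11.59 and 11.51 in WT LSK FLT3-, with changes of -0.22 in the knockout and -0.23 (adjusted p = 0.183) at the stage step.

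The summed marker lists and the Actb control for RNA quality differed without overlap in the stage comparison, and the Gapdh control overlapped. The B and plasma cell list was at 105 and 106 (summed linear intensity) in WT LMPP and at 1315 and 1464 in WT LSK FLT3-, nearly all of it from Jchain and Igha, while the B cell gene Cd79a (log2 scale) read 4.25 and 3.97 in WT LMPP, against 3.49 and 3.30 in WT LSK FLT3-. The 8 neutrophil granule genes summed to 4271 and 4119 in WT LMPP and to 4300 and 4672 in WT LSK FLT3-, but 5 of them were called higher in WT LMPP and 2 lower, with a median log2 change of 0.70. The 4 erythroid genes summed to 83.7 and 86.1 in WT LMPP and to 197 and 186 in WT LSK FLT3-, with 2 called higher and 2 lower. The 7 stem cell and megakaryocyte genes, all called lower in WT LMPP, summed to 283 and 304 there and to 1750 and 1830 in WT LSK FLT3-, and the 7 stroma genes to 98.2 and 82.8 in WT LMPP and to 124 and 114 in WT LSK FLT3-. The log2 gap between the 3' and 5' Actb control probe sets, which grows as RNA is shortened, was 3.89 and 3.95 in WT LMPP and 3.55 and 3.45 in WT LSK FLT3-, and that of Gapdh 3.19 and 3.30 in WT LMPP and 3.44 and 3.25 in WT LSK FLT3-. The part of these in the member values was not tested.

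E2A-KO LMPP against WT LSK FLT3- crosses genotype and stage at once and shares its arrays with both comparisons above. On the deposited values 26 members fell (35.6%, against 26.5% of all genes) and 2 rose (against 11% of all genes), with a median change of -0.27. Without the dimmest 40% of genes, 31 of 67 members fell (46.3%, against 45.4% of the genes left), with a median change of -0.3351 against -0.3292 over the genes left. After quantile normalization 6 fell (11.1% of all genes did) and 7 rose (8.76% of all genes did), with a median of -0.04. Without either WT LSK FLT3- array fewer members, and fewer of all genes, were called lower or higher. In these fits the members' share called lower was below that of all genes. The members' median change was -0.3136 without replicate 1 of that group and -0.2722 without replicate 2. The medians over all genes were -0.0311 and -0.0243. Without E2A-KO LMPP replicate 2 the members and genes called higher were also fewer. The members that rose on the deposited values were Cox6a2, by 0.74 (adjusted p = 0.0117), and the dim Ndufb4, by 0.54 (adjusted p = 0.0116). After quantile normalization Cox6a2 stayed called (change 0.95, adjusted p = 0.00894) and Ndufb4 did not (change 0.39, adjusted p = 0.0685). Ndufb5 changed by -0.89 (adjusted p = 0.0012), Ndufb10 by -0.90 (adjusted p = 0.00183), Ndufa4 by -0.42 (adjusted p = 0.0298; quantile -0.0792, adjusted p = 0.709) and Cox7a2l by -0.45 (adjusted p = 0.023; quantile -0.28, adjusted p = 0.174). For Cox6a2 the second probe set, at 3.22 and 3.26 in E2A-KO LMPP and at 3.40 and 3.33 in WT LSK FLT3-, had a change of -0.13 (adjusted p = 0.501), so the probe sets placed the knockout cells differently relative to WT LSK FLT3-. Called lower under quantile normalization were Ndufb10, Ndufb5, Ndufb6, Ndufaf2, Uqcrc2 and Cox6b2.

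Genes that work with the chain were read from companion lists. Of 18 ATP synthase genes, which use the proton gradient, 5 fell and 1 rose in WT LMPP against WT LSK FLT3- (quantile, 0 fell and 2 rose); Atp5a1, the catalytic-head alpha subunit, changed by -0.56 (adjusted p = 0.0104; quantile adjusted p = 0.0557) and Atp5md by 0.43 (adjusted p = 0.0275). Both lost their calls without either WT LSK FLT3- array (adjusted p = 0.0606 to 0.155), and Atp5md also without either WT LMPP array (adjusted p = 0.0511 and 0.0762). Of 11 electron carrier and coenzyme Q genes, which include Cyc1, a complex III subunit outside the symbol rule, 7 fell (quantile, 1), of 27 assembly factors of complexes II to IV 12 fell (quantile, 3), of 16 regulators of mitochondrial gene expression and biogenesis 8 fell (quantile, 3), and of 17 citric acid cycle genes 6 fell (quantile, 2 fell and 2 rose). Over all genes, 23.7% were called lower on the deposited values, 40.8% without the dimmest 40% of genes, and 10.1% after quantile normalization. The widest of these changes was that of Lrpprc, which stabilizes mitochondrial mRNA: it was at 5.83 and 6.01 in WT LMPP and at 7.25 and 7.38 in WT LSK FLT3- (log2 change -1.40, adjusted p = 0.000206; quantile -1.02, adjusted p = 0.00169). Also lower under both scalings were Tfb1m and Tfb2m, which act on mitochondrial ribosomal RNA and transcription (changes -1.08 and -0.97, adjusted p = 0.00119 and 0.00231), the copper chaperone Cox11 (change -0.98, adjusted p = 0.00176) and the dehydrogenase subunit genes Dld (change -0.93, adjusted p = 0.0018) and Idh3a (change -0.87, adjusted p = 0.00285).

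A complex I subunit made from mitochondrial DNA was also measured. ND5, a proton-pumping core subunit of complex I, was at 11.92 and 11.94 in E2A-KO LMPP, 12.05 and 12.21 in WT LMPP and 11.33 and 11.33 in WT LSK FLT3-. It was higher in WT LMPP than in WT LSK FLT3- with no overlap (log2 change 0.80, adjusted p = 0.00226; quantile 0.94, adjusted p = 0.00179), and did not pass in the knockout (log2 change -0.20, adjusted p = 0.513). It was the single gene of its list measured here, so this describes 1 transcript.

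In the knockout, the companion lists held 1 called gene, among the 11 electron carrier and coenzyme Q genes. Over all genes, 0.379% were called higher and 0.995% lower. Coq3, a methyltransferase of coenzyme Q synthesis, was at 5.69 and 6.00 in E2A-KO LMPP, 4.99 and 4.66 in WT LMPP and 5.76 and 5.83 in WT LSK FLT3-. It was higher in E2A-KO LMPP than in WT LMPP with no overlap (log2 change 1.02, SE 0.16, adjusted p = 0.0211; quantile 1.12, adjusted p = 0.0216), and lower in WT LMPP than in WT LSK FLT3- (log2 change -0.97, adjusted p = 0.00283; quantile -0.75, adjusted p = 0.019). The knockout call of Coq3 was fragile: the adjusted p was 0.0828 on the 4 LMPP arrays alone, 0.1 with probe sets averaged, where the change was 0.66, and 0.0525 to 0.118 without E2A-KO LMPP replicate 1, E2A-KO LMPP replicate 2 or WT LMPP replicate 2. The ATP synthase, assembly factor, biogenesis regulator, citric acid cycle and mitochondrially encoded lists had 0 calls in the knockout under both scalings; their widest changes were 0.34 for Atp5l (adjusted p = 0.336), 0.78 for Ttc19 (adjusted p = 0.298, and 1.35 with an adjusted p of 0.0321 without WT LMPP replicate 2), 0.71 for Nrf1 (adjusted p = 0.24), 0.42 for Idh3a (adjusted p = 0.228) and -0.20 for ND5.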

How the data were processed

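RNA from sorted cells was amplified in 2 rounds and hybridized to 6 Affymetrix 3' arrays, per the labels' protocols, which favours transcript 3' ends. The deposited values are linear probe set intensities. The submitters' processing notes name RMA, without a version, and no source used here says whether it was run on all arrays together. Here log2 was taken. Of 45101 probe sets, 34958 had 1 gene symbol, and the brightest stood for each of 18194 genes. Of the members, 41 had several probe sets, 16 were read by probe sets whose type can cross-match, and 10 probe sets naming a member beside another gene were not used.

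Tests were limma 3.58.1 fits in R 4.3.3 with 1 mean per group over all 6 arrays (3 residual and 5.8 prior degrees of freedom), two-sided, with Benjamini-Hochberg adjustment over all genes and a threshold of 0.05. SEs are from the model, n = 2 arrays a group, and the number of arrays limits the precision. The named genes are the widest called changes of each list (or the widest not called), all complex II genes and all restricted isoforms with counterparts; other genes were chosen after their values were seen. The members and lists were chosen with earlier results of these data known. Alternatives were other scalings, filters, probe set rules, variance models, thresholds, a replicate block and leaving out each array. Promoters came from RefSeq (GRCm38.p6). Figures used matplotlib 3.10.9.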

Additional observations from a re-analysis of the deposited data

How the results depend on the processing

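The 0 members lower in E2A-KO LMPP against WT LMPP became 1 (Cox6a2) with the mean of all probe sets, with a variance trend and at an adjusted p under 0.1, and were 0 to 1 with 1 array left out. In WT LMPP against WT LSK FLT3- the 1 member higher became 7 after quantile normalization, 3 with a variance trend and 2 at an adjusted p under 0.1. The 24 lower became 5 after quantile normalization, 38 with a variance trend and 1 with at least a 2-fold change. With 1 array left out, fewer members and fewer of all genes were called lower in some fits. In E2A-KO LMPP against WT LSK FLT3- the 2 higher became 7 after quantile normalization, 0 with a 2-fold minimum and 0 to 3 with 1 array left out; the 26 lower became 6, 1 and 8 to 31 under the same settings. Centring on array medians, which moved the median of all genes in WT LMPP against WT LSK FLT3- to -0.1157, gave 36 lower and 1 higher. Of all 18194 genes, 5376 were lower and 1161 higher with centring. With a variance trend, which gave 38 members lower and 3 higher there, 4846 of all genes were lower and 1914 higher. A fall in counts under the 2-fold minimum follows from its construction. The cause of the other shifts, among them those with 1 array left out, was not tested. The replicate numbers did not pair the arrays (correlations of replicate differences of 0.0226, -0.0417 and -0.022). With the replicate block 22 members were lower in WT LMPP against WT LSK FLT3-, where 4123 of all 18194 genes were. Cox6a1 lost its call there (adjusted p = 0.0529). After quantile normalization 5 of the 73 members turned sign in the knockout and 19 in WT LMPP against WT LSK FLT3-. Among the genes named for the knockout, those that turned with all 6 arrays kept were Sdha (0.0543) and Sdhc (-0.0786) with the mean of probe sets, Sdhc after centring (-0.0015) and Cox4i1 after quantile normalization (0.0166). With 1 array left out, knockout changes ran between -0.0452 and 0.10 for Sdhc, -0.028 and 0.19 for Sdhd, -0.0538 and 0.0486 for Cox4i1, -0.043 and 0.15 for Cox8a, -0.0386 and 0.34 for Cox4i2, -0.0479 and 0.18 for Cox7a1, -0.15 and 0.43 for Cox8b, and -0.16 and 0.0222 for Ndufa4l2. Named genes in WT LMPP against WT LSK FLT3- that turned were as follows: Sdhb (0.0449), Cox7a2 (0.0752), Ndufv2 (0.0787), Uqcrb (0.0188), Cox5a (0.1001) and Ndufa4 (0.18) turned after quantile normalization, Sdhc (-0.0818) and Cox8c (-0.0343) after centring, and Sdhc with the mean of probe sets (-0.52, adjusted p = 0.016). With 1 array left out they ran between -0.018 and 0.0668 for Sdhc, -0.20 and 0.18 for Cox4i2, -0.0060 and 0.32 for Cox7a1, and -0.0644 and 0.21 for Cox8c.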
